A study of Mus musculus with 12 samples.

Results

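The 7 inhibitors of cyclin-dependent kinases of the Cip/Kip and Ink4 families and the 3 D-type cyclins were followed in cultured mouse bone marrow progenitors. They are Cdkn1a, Cdkn1b and Cdkn1c (Cip/Kip), Cdkn2a, Cdkn2b, Cdkn2c and Cdkn2d (Ink4), and Ccnd1, Ccnd2 and Ccnd3. These 10 genes were taken by symbol from a table of read counts for 55376 genes, and all 10 were among the 11994 genes that passed a filter on low counts and were tested. The 12 libraries form 4 groups of 3. Cells sorted as c-Kit+, Sca-1+ and lineage-negative were cultured in RPMI containing 20 ng/ml IL-3, 20 ng/ml IL-6 and 100 ng/ml SCF, received an MSCV retrovirus made in Phoenix cells under geneticin selection, and then a pLKO.1-puro lentivirus with an shRNA. NUP98-NSD1 with shNizp1#2, NUP98-NSD1 with shNizp1#1 and NUP98-NSD1 with the control shRNA (fusion-control cells) are the 3 fusion groups. Cells with the empty MSCV vector and the control shRNA (empty-vector cells) are the fourth group, so every group carried a retroviral and an shRNA vector. NUP98-NSD1 joins a nucleoporin to a histone H3 lysine 36 methyltransferase and occurs in acute myeloid leukaemia, and the title of the series asks whether the zinc finger protein Nizp1, an NSD1 binding partner, acts with it. The labels name no animals, and each p-value measures only the spread between these libraries.

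D-type cyclins bind Cdk4 and Cdk6 when growth factors are present, and the complexes phosphorylate RB proteins, which frees E2F factors to switch on genes for DNA replication. Ink4 proteins bind Cdk4 and Cdk6 and keep the cyclin away, whereas Cip/Kip proteins bind cyclin-kinase complexes, blocking Cdk2 and also helping D-type cyclins assemble with their kinases. In blood-forming cells these inhibitors are known for holding stem cells at rest and for stopping division as cells mature, and Cdkn2a is a common barrier to oncogenes.

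Library totals lay between 3586538 and 6842589 counts, and 3 counts in a library equal 0.417 to 0.837 CPM, the library-scaled count used here. Nizp1, which the table lists as Zkscan17, was at 29.0, 17.6 and 27.0 CPM in shNizp1#2 cells, 35.0, 26.2 and 30.4 CPM in shNizp1#1 cells, 62.6, 49.4 and 61.8 CPM in fusion-control cells and 64.2, 57.0 and 68.2 CPM in empty-vector cells. Libraries with the same replicate number deviated together from their group means, so a number is called an experiment here, which is an inference from the data, since the labels do not state it. Where values of a group follow each other, they are those of experiments 1, 2 and 3. Kit, which encodes c-Kit and is a marker of mast cells as well as of progenitors, ran from 1930 to 3105 CPM, and Ly6a, which encodes Sca-1, from 23.8 to 277 CPM. Of the other 7 stem and progenitor markers, Cd34 ran from 1140 to 2022 CPM and Meis1 from 55.0 to 157 CPM. Hlf ran from 14.7 to 104 CPM and Mecom from 8.66 to 74.1 CPM. Flt3 (0 to 3.86 CPM), Procr (0.293 to 2.74 CPM) and Slamf1 (1.09 to 8.66 CPM) were low. The 10 mast cell markers, Kit among them, summed to between 38061 and 62217 CPM, with Cpa3, the mast cell carboxypeptidase, at 19341 CPM or more in every library. The 5 B cell markers summed to at most 3.09 CPM and the 6 stromal markers to at most 5.29 CPM. In RNA from bulk cells, fewer cells of a type and less RNA per cell cannot be told apart.

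The RefSeq start regions (GRCm38.p6, 250 bases before to 50 after a start site) of 4 transcripts show the genes that the results turn on. RefSeq windows were matched for 7 of the 10 genes, with 11 windows in all, and Ccnd1, Ccnd2 and Cdkn1c were not matched. Cdkn2d is shown because it is the single gene of the 10 that passed a test between groups, the upstream of the 2 Cdkn1a starts because Cdkn1a is the most abundant inhibitor and this window holds the p53-type word, and Cdkn2a because its count joins transcripts from 2 start sites. The upstream Cdkn2a start makes the transcript of p19Arf, which acts on p53 through Mdm2, and the downstream start makes that of p16Ink4a, an inhibitor of Cdk4 and Cdk6, so counts per gene cannot separate these products. Each sequence reads 5′ to 3′ on the strand of the gene, and capitals mark GC boxes (GGGCGG on either strand, the word bound by Sp1 factors) or a p53-type word.
Cdkn2d, chr9:21291160-21291459, minus strand: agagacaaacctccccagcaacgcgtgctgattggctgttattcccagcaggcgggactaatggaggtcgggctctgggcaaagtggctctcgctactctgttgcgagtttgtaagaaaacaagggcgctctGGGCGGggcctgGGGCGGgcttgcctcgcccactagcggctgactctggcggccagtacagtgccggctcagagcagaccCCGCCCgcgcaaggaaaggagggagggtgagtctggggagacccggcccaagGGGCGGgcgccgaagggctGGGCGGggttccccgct
Cdkn1a upstream start, chr17:29090729-29091028, plus strand: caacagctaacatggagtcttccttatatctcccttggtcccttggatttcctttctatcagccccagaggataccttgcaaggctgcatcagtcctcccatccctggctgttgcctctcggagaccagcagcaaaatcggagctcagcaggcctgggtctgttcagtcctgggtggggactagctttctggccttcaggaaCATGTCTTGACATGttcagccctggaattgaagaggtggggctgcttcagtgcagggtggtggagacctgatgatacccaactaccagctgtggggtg
Cdkn2a upstream start, chr4:89294570-89294869, minus strand: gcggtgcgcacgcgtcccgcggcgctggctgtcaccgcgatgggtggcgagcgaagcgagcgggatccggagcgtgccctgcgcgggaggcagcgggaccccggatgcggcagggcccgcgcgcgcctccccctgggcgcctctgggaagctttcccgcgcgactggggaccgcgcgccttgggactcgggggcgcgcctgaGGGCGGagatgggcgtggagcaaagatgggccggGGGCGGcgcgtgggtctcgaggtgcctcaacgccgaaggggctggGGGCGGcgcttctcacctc
Cdkn2a downstream start, chr4:89282143-89282442, minus strand: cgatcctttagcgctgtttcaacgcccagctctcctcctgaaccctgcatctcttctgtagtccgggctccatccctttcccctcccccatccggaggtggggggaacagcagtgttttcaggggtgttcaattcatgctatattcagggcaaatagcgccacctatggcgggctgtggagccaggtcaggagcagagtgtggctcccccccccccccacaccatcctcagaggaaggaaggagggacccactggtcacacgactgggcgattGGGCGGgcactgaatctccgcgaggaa
The Cdkn2d window held 5 GC boxes, the upstream Cdkn2a window 3 and the downstream one 1. A GC box occurred in 35.658% of all 32851 RefSeq windows of this length. The upstream Cdkn1a window held 1 word CATGNNNNNNCATG, the core of a p53-type site, whose first base lies at -48 from that start site, and 0.712% of all windows held one. The window of the downstream Cdkn1a start (chr17:29093519-29093818, not printed) held 0 such words and 2 GC boxes, and the count of Cdkn1a joins transcripts of both starts. None of the 11 windows held an E2F word (TTTCGCGC or TTTGGCGC), which 0.813% of all windows did. Both strands were searched, the words do not overlap, and a match or its absence describes letters only.

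Per transcript length (in TPM, counts scaled by exon length and by library), Cdkn1a was the most abundant of the 10 genes and Cdkn1c the least. Cdkn1a, which encodes p21 and is a classic target of p53, ran from 295 to 550.2 TPM over the 12 libraries with a median of 375 TPM. Ccnd3 followed at 234 to 431 TPM and Ccnd2 at 140.1 to 224 TPM. Cdkn1a was above Ccnd3 in 9 of 12 libraries and their ranges overlapped, while Ccnd3 was above Ccnd2 in 12 of 12 with no overlap of ranges. Cdkn2d, which encodes p19Ink4d, had 75.6 to 147 TPM. Cdkn1b, which encodes p27, had 24.4 to 119 TPM, Cdkn2a 16.2 to 106 TPM, and Cdkn2c, which encodes p18Ink4c, 30.9 to 68.7 TPM. The order among these 3 was not stable: Cdkn1b exceeded Cdkn2a in 7 of 12 libraries, and Cdkn2a exceeded Cdkn2c in 5 of 12. Ccnd1 lay lower at 5.68 to 22.0 TPM, below Cdkn2c in 12 of 12 libraries with no overlap of ranges. Cdkn2b, which encodes p15Ink4b, had 1.88 to 6.38 TPM. Cdkn1c, which encodes p57 and is imprinted, had 0 to 15.0 TPM with a median of 1.36 TPM.

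**Figure D1:**
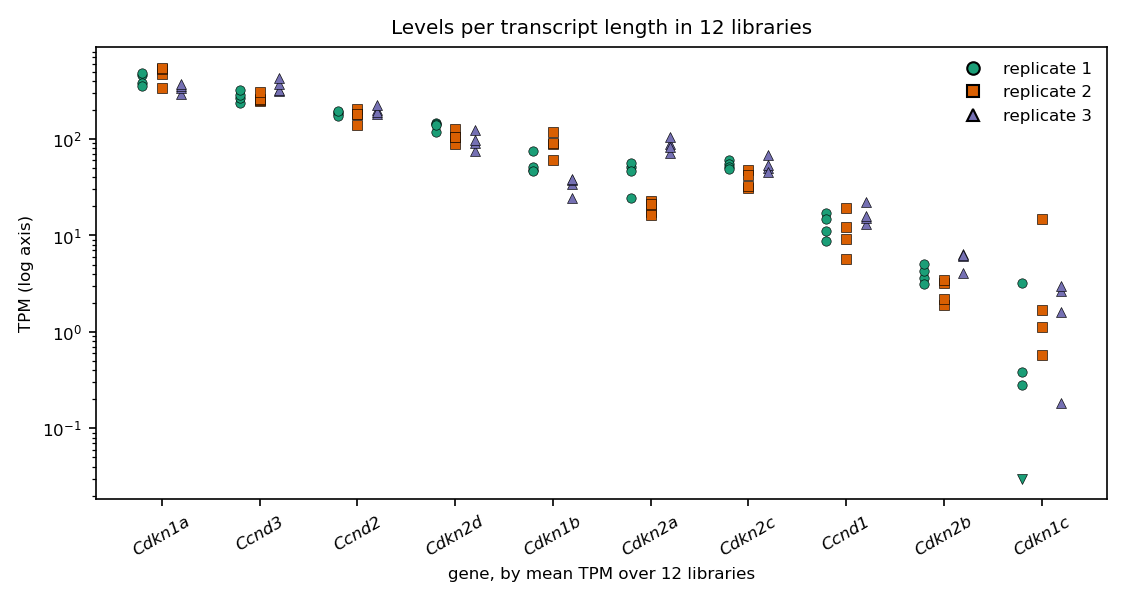
Level of each gene per transcript length in the 12 libraries (TPM, log axis), with genes ordered by their mean and symbols marking the replicate number. Ccnd3 lies above Ccnd2 and Cdkn2c above Ccnd1 with no overlap, and the downward triangle under Cdkn1c stands for the library at 0 TPM, which a log axis cannot show at its value.

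Within each family 1 or 2 genes held most of the level per length. Of the summed D-type cyclin TPM, Ccnd3 held 53.6% to 64.6%, Ccnd2 32.7% to 43.8% and Ccnd1 1.31% to 3.79%. Cdkn1a held 78.7% to 91.9% of the summed Cip/Kip TPM in every library. The Ink4 family was more evenly divided, with Cdkn2d at 34.1% to 68.1%, Cdkn2a at 9.05% to 41.4% and Cdkn2c at 17.9% to 26.7%. The Cdkn2a count also holds transcripts of p19Arf, which is not an Ink4 inhibitor. The Ink4 sum and its shares thus include them to an unknown extent. The summed D-type cyclin level was 573 ± 90.5 TPM in shNizp1#2 cells, 486 ± 88.5 TPM in shNizp1#1 cells, 488 ± 29.4 TPM in fusion-control cells and 463 ± 58.1 TPM in empty-vector cells (SD, n = 3 each). The summed Ink4 level was 219 ± 49.7, 214 ± 53.1, 202 ± 38.5 and 234 ± 37.6 TPM in the same order of groups. For both sums the ranges of all 4 groups overlapped. Within experiments the summed D-type cyclin level was 532, 511 and 677 TPM in shNizp1#2 cells, against 472, 470.1 and 522 TPM in fusion-control cells, and was thus higher in 3 of 3. The share of Ccnd3 in this sum was 60.7%, 60.6% and 63.7% in shNizp1#2 cells, 61.0%, 63.4% and 64.6% in shNizp1#1 cells, 55.7%, 53.6% and 61.9% in fusion-control cells and 54.8%, 56.6% and 59.5% in empty-vector cells. With each shRNA the share was higher than in fusion-control cells in 3 of 3 experiments, although the ranges overlapped, and the ranges of both shRNA groups lay above that of the empty-vector cells. These shares and sums were not tested.

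Differences between groups were small for these genes. In a fit with the experiment as a block, 1 gene passed the test in 1 of the 4 comparisons. The fit planned as the main one has no block, and 0 of the 10 genes passed in it in any comparison. The test was edgeR's quasi-likelihood test over all 11994 genes with Benjamini-Hochberg adjustment, and a gene passed at an adjusted p under 0.05. Fold changes, errors and p-values come from a fit that has the experiment as a block, unless stated. With the fusion against the empty vector, Cdkn2d fell and the other 9 genes did not pass. That is 1 of 10 genes against 0.275% of all tested genes, and without the block 0 of 10 passed against 0.00834% of all. At an unadjusted p under 0.05, 5 of the 10 genes lay against 11% of all genes, and 5 of 10 moved the same way in each experiment against 32.2% of all. With shNizp1#1 against the control shRNA none of the 10 passed, against 1.63% of all genes with the block and 0% without. There 2 of 10 had an unadjusted p under 0.05 against 12.3% of all, and 3 of 10 kept their direction in each experiment against 35.3% of all. With shNizp1#2 against the control shRNA none of the 10 passed, against 0.217% of all genes with the block and 0.00834% without.

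For shNizp1#2, 4 of the 10 genes had an unadjusted p under 0.05 against 11.1% of all, and 4 kept their direction in each experiment against 39.1% of all. Between shNizp1#2 and shNizp1#1 none of the 10 passed, against 2.37% of all genes with the block and 0.00834% without. In this comparison 5 of 10 had an unadjusted p under 0.05 against 14.8% of all, and 6 kept their direction against 42.8% of all. At the unadjusted threshold the 10 genes lay above the share of all genes with the fusion, with shNizp1#2 and between the shRNAs. With shNizp1#1 they lay near it (2 of 10 against 12.3%). In direction they lay near the share of all genes or, with the fusion and between the shRNAs, above it by few genes. The genes were chosen with earlier results known, so no test of these shares is given. The median log2 fold change of the 10 genes was 0.04 with the fusion, -0.12 with shNizp1#1, 0.19 with shNizp1#2 and 0.22 between shNizp1#2 and shNizp1#1, and the median of all tested genes was -0.00 in each. The fusion-control libraries enter the comparison with the empty vector and both comparisons with an shRNA, so these share samples. In CPM, the ranges of the groups overlapped for all 10 genes in all 4 comparisons.

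**Figure D2:**
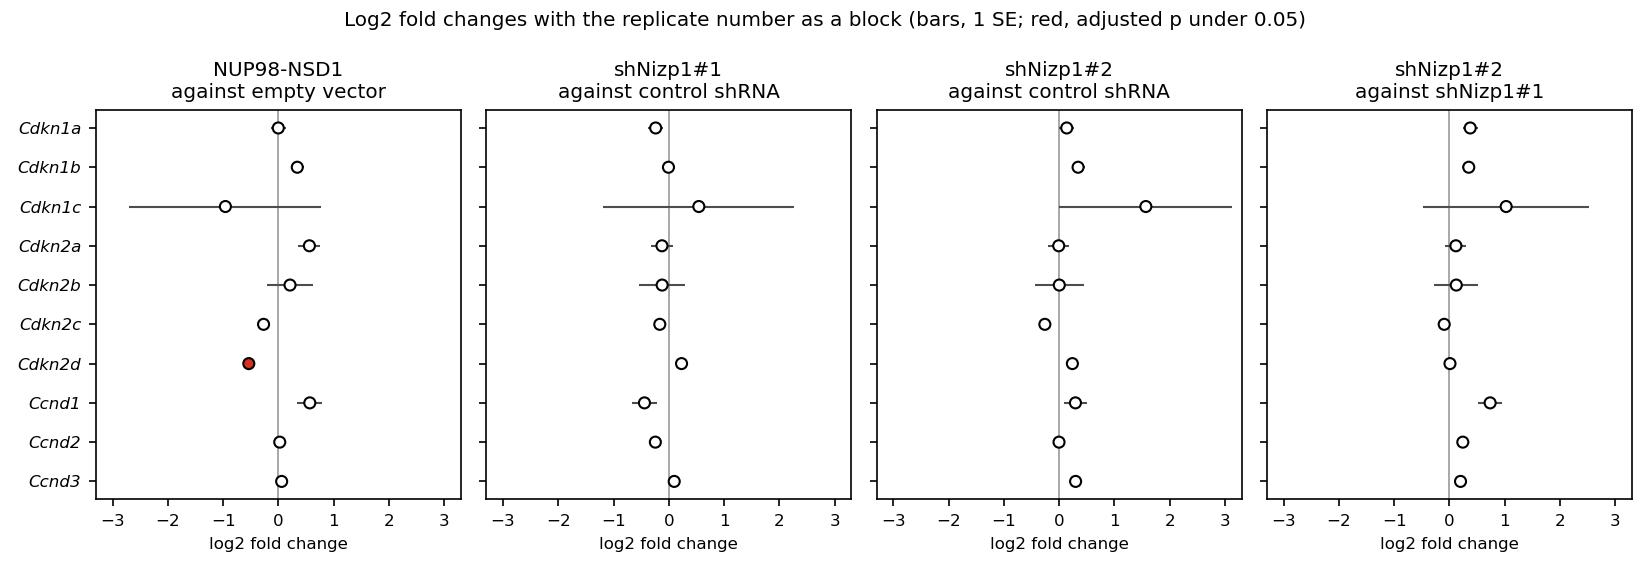
Log2 fold change of the 10 genes in the 4 comparisons (x axis), fitted with replicate number as a block, with bars of 1 SE and a filled red point for an adjusted p under 0.05. Cdkn2d with the fusion, at -0.54, is the filled point, and the bars of Cdkn1c are the widest because few reads were counted.

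Among the Ink4 inhibitors, Cdkn2d was lower with the fusion. Cdkn2d (chr9:21288410-21291308, minus strand, mm10) had 89.4, 64.2 and 59.7 CPM in shNizp1#2 cells, 91.8, 65.9 and 55.5 CPM in shNizp1#1 cells, 78.2, 56.5 and 46.9 CPM in fusion-control cells and 98.7, 83.3 and 77.5 CPM in empty-vector cells. Within each experiment the fusion-control library was the lowest and the empty-vector library the highest, although the ranges of the groups overlapped across experiments. Cdkn2d in fusion-control cells was at 0.689 times the empty-vector level (log2 fold change -0.54, SE 0.10, adjusted p = 0.0351), and it was lower in 3 of 3 experiments. Without the block the value was -0.52 (SE 0.24) with an unadjusted p of 0.0549 in edgeR's test, and it did not pass. The blocked call was lost when the third empty-vector library, any 1 of the 3 fusion-control libraries or any whole experiment was left out, with log2 fold changes between -0.43 and -0.64 over these fits. With shNizp1#1 the log2 fold change of Cdkn2d was 0.23 (SE 0.10, adjusted p = 0.356) and with shNizp1#2 0.24 (SE 0.10, adjusted p = 0.393), each above 0 in 3 of 3 experiments and neither passing. Mast cell markers summed to between 41562 and 57060 CPM in fusion-control cells and between 44902 and 62217 CPM in empty-vector cells, and neutrophil markers to between 7.26 and 2202 CPM and between 5.43 and 2066 CPM in these groups; their part in the difference of Cdkn2d was not tested.

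Cdkn2c (chr4:109660876-109667189, minus strand), an Ink4 inhibitor that limits the division of immature blood cells, had 57.6, 36.2 and 51.1 CPM in shNizp1#2 cells and 59.7, 35.4 and 59.4 CPM in shNizp1#1 cells. It had 66.4, 48.5 and 56.7 CPM in fusion-control cells and 73.4, 56.5 and 77.5 CPM in empty-vector cells. Empty-vector libraries were the highest in each experiment, and the group ranges overlapped. Its log2 fold change was -0.27 with the fusion (SE 0.11, adjusted p = 0.404) and -0.26 with shNizp1#2 (SE 0.11, adjusted p = 0.411), below 0 in 3 of 3 experiments in both, and neither passed. With shNizp1#1 it was -0.16 (SE 0.11, adjusted p = 0.622).

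Cdkn2a (chr4:89274471-89294653, minus strand) had 24.1, 10.2 and 51.5 CPM in shNizp1#2 cells, 29.0, 8.09 and 39.9 CPM in shNizp1#1 cells, 26.7, 11.6 and 44.2 CPM in fusion-control cells and 13.1, 9.20 and 35.6 CPM in empty-vector cells. Experiment 3 held the highest Cdkn2a value of every group and experiment 2 the lowest, so the groups overlapped widely. With the fusion its log2 fold change was 0.56 (SE 0.20, adjusted p = 0.336), higher in 3 of 3 experiments, and it did not pass. With shNizp1#1 it was -0.12 (SE 0.19) and with shNizp1#2 -0.01 (SE 0.19).

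Cdkn2b (chr4:89306299-89311039, minus strand), the neighbour of Cdkn2a and a gene that TGF-beta induces in other cells, was counted 4 to 25 times per library. It ran from 1.24 to 3.67 CPM in shNizp1#2 cells, 1.12 to 3.47 CPM in shNizp1#1 cells, 1.97 to 3.73 CPM in fusion-control cells and 1.99 to 2.39 CPM in empty-vector cells. Its log2 fold changes lay between -0.12 and 0.21 in the 4 comparisons, with SEs of 0.40 to 0.44, so a change of the size seen for Cdkn2d was not detectable at this depth.

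Among the Cip/Kip inhibitors no gene passed the test. Cdkn1a (chr17:29090979-29100727, plus strand) had 573, 613 and 419 CPM in shNizp1#2 cells, 422, 394 and 393 CPM in shNizp1#1 cells, 462, 615 and 384 CPM in fusion-control cells and 570.0, 569.9 and 337 CPM in empty-vector cells. The shNizp1#1 library was the lowest in experiments 1 and 2, and experiment 3 held the lowest value of every group, so the groups overlapped. The log2 fold change was -0.00 with the fusion (SE 0.13), -0.24 with shNizp1#1 (SE 0.13, adjusted p = 0.519) and 0.14 with shNizp1#2 (SE 0.13, adjusted p = 0.745). Between shNizp1#2 and shNizp1#1 it was 0.37 (SE 0.13, adjusted p = 0.187), higher in 3 of 3 experiments, and it passed only in the fit with no filter on low counts (23682 genes, 0.38, adjusted p = 0.0173).

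Cdkn1b (chr6:134920401-134925513, plus strand), the inhibitor that accumulates when cells leave the cycle, had 148, 222 and 73.2 CPM in shNizp1#2 cells, 94.0, 176 and 69.9 CPM in shNizp1#1 cells, 104, 174 and 65.9 CPM in fusion-control cells and 99.4, 124 and 46.7 CPM in empty-vector cells. Within each experiment the shNizp1#2 library was the highest, and across experiments all groups overlapped. The log2 fold change was 0.34 with the fusion (SE 0.12, adjusted p = 0.336) and 0.34 with shNizp1#2 (SE 0.12, adjusted p = 0.296), each above 0 in 3 of 3 experiments. It was -0.01 with shNizp1#1 (SE 0.12) and 0.35 between shNizp1#2 and shNizp1#1 (SE 0.12, adjusted p = 0.155), and none of these passed.

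Cdkn1c (chr7:143458339-143461050, minus strand), known for keeping blood stem cells at rest, had 2, 77 and 1 counts in shNizp1#2 cells, 1, 5 and 17 counts in shNizp1#1 cells, 0, 5 and 11 counts in fusion-control cells and 16, 2 and 6 counts in empty-vector cells. A single library, shNizp1#2 in experiment 2, thus held 77 of the 80 counts of its group and stood at 11.9 CPM, and all other libraries were at 2.82 CPM or less. The log2 fold change with shNizp1#2 was 1.57 (SE 1.56, adjusted p = 0.765), and over all fits with the block it ran from -2.20 to 3.39, so no direction can be given at this depth.

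**Figure D3:**
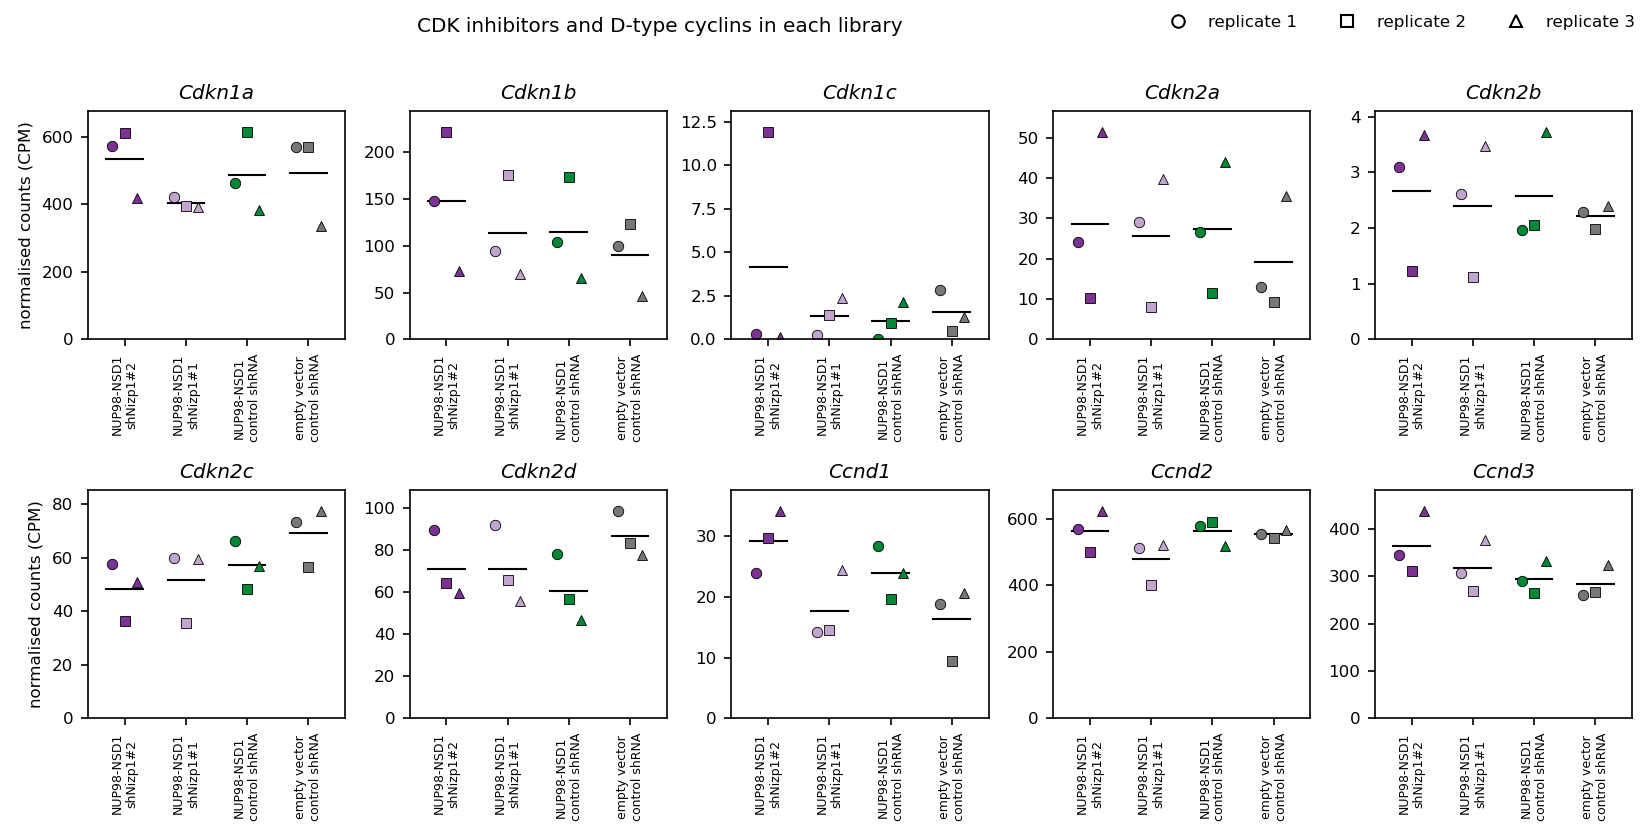
Normalised counts (CPM) of the 10 genes in each library by group, with symbols for the replicate number and a line at the group mean (n = 3). For Cdkn2d the fusion-control libraries (46.9 to 78.2 CPM) lie under the empty-vector library of the same replicate, and for Cdkn1c a single library stands at 11.9 CPM.

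None of the D-type cyclins passed the test, and Ccnd1 and Ccnd3 showed the lowest p-values among them. Ccnd1 (chr7:144929931-144939869, minus strand), the D-type cyclin best known from epithelial tumours, had 24.0, 29.7 and 34.2 CPM in shNizp1#2 cells, 14.3, 14.5 and 24.4 CPM in shNizp1#1 cells, 28.5, 19.6 and 23.9 CPM in fusion-control cells and 18.9, 9.45 and 20.6 CPM in empty-vector cells. The shNizp1#2 libraries were above shNizp1#1 in each experiment, with a small overlap across experiments. The log2 fold change between shNizp1#2 and shNizp1#1 was 0.74 (SE 0.22, adjusted p = 0.112), and it passed only with no filter on low counts (adjusted p = 0.00352). Against the control shRNA, Ccnd1 was at -0.44 with shNizp1#1 (SE 0.23, adjusted p = 0.470) and at 0.29 with shNizp1#2 (SE 0.21, adjusted p = 0.651). With the fusion it was 0.57 (SE 0.23, adjusted p = 0.398), higher in 3 of 3 experiments and not passing. Exons of LTO1 overlap Ccnd1 on the opposite strand, and the strand setting of the counting is not given in the sources used here, so reads of this pair may not have been told apart. LTO1 had 1905 counts over the 12 libraries, against 1457 for Ccnd1, and its log2 fold change between shNizp1#2 and shNizp1#1 was -0.10 (SE 0.13, adjusted p = 0.806).

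Ccnd2 (chr6:127125162-127151060, minus strand), a cyclin induced by cytokines in blood cells, had 570.5, 500.1 and 625 CPM in shNizp1#2 cells, 511, 401 and 523 CPM in shNizp1#1 cells, 579, 592 and 518 CPM in fusion-control cells and 555, 543 and 568 CPM in empty-vector cells. The empty-vector values lay close together, and the shNizp1#1 values were the lowest in experiments 1 and 2. The log2 fold change was -0.24 with shNizp1#1 (SE 0.11, adjusted p = 0.354), 0.02 with the fusion (SE 0.10) and -0.00 with shNizp1#2 (SE 0.10). None passed.

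Ccnd3 (chr17:47505051-47599691, plus strand), a D-type cyclin used widely by blood cells, had 346, 311 and 439 CPM in shNizp1#2 cells, 306, 269.9 and 377 CPM in shNizp1#1 cells, 289, 264 and 333 CPM in fusion-control cells and 260.5, 267 and 325 CPM in empty-vector cells. The shNizp1#2 library was the highest in each experiment, and experiment 3 was the highest in each group, so the ranges overlapped. With shNizp1#2 the log2 fold change of Ccnd3 was 0.30 (SE 0.08, unadjusted p = 0.00253, adjusted p = 0.175 in edgeR's test), higher in 3 of 3 experiments. With shNizp1#1 it was 0.10 (SE 0.08, adjusted p = 0.703) and with the fusion 0.06 (SE 0.08, adjusted p = 0.847). Exons of Bysl overlap Ccnd3 on the opposite strand with 3335 counts, against 20565 for Ccnd3, and the log2 fold change of Bysl with shNizp1#2 was -0.13 (SE 0.13).

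For most of these genes the experiments differed from each other. In edgeR's test of the experiment terms, 6 of the 10 genes passed, against 53.5% of all tested genes, so the share is close to the background. They were Cdkn1b (adjusted p = 6.96e-07), Cdkn2a (adjusted p = 2.17e-06), Cdkn2d (adjusted p = 0.00019), Cdkn2c (adjusted p = 0.000829), Ccnd3 (adjusted p = 0.00101) and Cdkn1a (adjusted p = 0.0074). Cdkn2b (adjusted p = 0.0629), Ccnd1 (adjusted p = 0.0787), Ccnd2 (adjusted p = 0.324) and Cdkn1c (adjusted p = 0.504) did not pass. Cdkn2a and Cdkn1b ran in opposite orders. Cdkn2a averaged 42.8 ± 6.78 CPM in experiment 3, 23.2 ± 7.07 CPM in experiment 1 and 9.76 ± 1.47 CPM in experiment 2, whereas Cdkn1b averaged 63.9 ± 11.9, 111 ± 24.8 and 174 ± 40.1 CPM in the same experiments (SD, n = 4 each). The log2 difference of experiment 3 from experiment 2 was 2.12 for Cdkn2a and -1.43 for Cdkn1b, and no library of one experiment overlapped one of the other for either gene.

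Neutrophil, monocyte and macrophage markers moved with the experiments, and mast cell markers were lowest in experiment 3. All 12 neutrophil markers were in the table, and their sum was 5.43 to 17.3 CPM in experiment 3, where Ltf, Camp and Retnlg were at 0, 267 to 584 CPM in experiment 1 and 1104 to 2202 CPM in experiment 2. The 9 monocyte and macrophage markers summed to 210.4 to 284 CPM in experiment 3, 464 to 519 CPM in experiment 1 and 644 to 980.4 CPM in experiment 2. Mast cell markers summed to 38061 to 44902 CPM in experiment 3, 48708 to 62217 CPM in experiment 1 and 45734 to 57645 CPM in experiment 2. Their part in the differences of Cdkn2a and Cdkn1b between experiments was not tested.

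**Figure D4:**
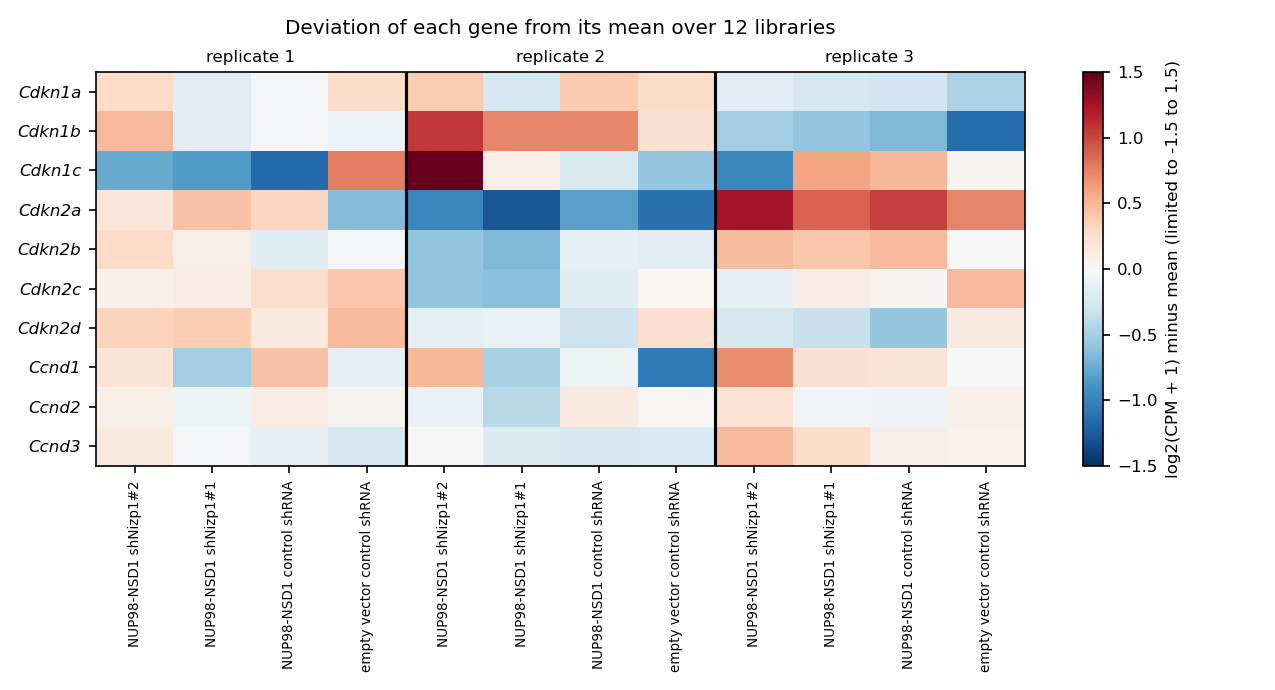
Deviation of each gene's log2(CPM + 1) from its mean over the 12 libraries (colour, limited to -1.5 to 1.5), with libraries grouped by replicate number and, within a number, shNizp1#2 at the left and the empty vector at the right. Cdkn1b is high in replicate 2 and low in replicate 3 in each group, and Cdkn2a shows the opposite order.

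Around these 10 genes, few genes of the pathway passed the test. Lists of kinases, cyclins and activators of G1 (23 genes tested), the RB and E2F family (18), replication genes controlled by E2F (25), the p53 pathway (21) and regulators of the Cdkn2a locus and of Cdkn1 genes (36) were counted. The first list also holds genes that act in mitosis, such as Ccnb1 and Cdc25c, and ubiquitin ligase parts, such as Fbxo4. Without the block 0 genes of these lists passed in any of the 4 comparisons. With the block, 0 passed with the fusion and 0 with shNizp1#1. With shNizp1#2 against the control shRNA 1 gene of 123 rose (0.813%, against 0.217% of all tested genes), Btg2, an antiproliferative gene induced by p53. Btg2 had 22.8, 176 and 6.75 CPM in shNizp1#2 cells and 6.13, 67.8 and 4.32 CPM in fusion-control cells. It was far higher in experiment 2 than in the others in both groups, and its log2 fold change was 1.35 (SE 0.22, adjusted p = 0.0241), higher in 3 of 3 experiments. This call was lost in the fits without the first or the second fusion-control library, without any 1 shNizp1#2 library and without any whole experiment.

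With the block, Btg2 and Rrm2b of the p53 list passed as higher in shNizp1#2 than in shNizp1#1 cells. Tfdp2 of the RB and E2F list passed as lower. These 3 calls are 2.44% of the 123 list genes tested, against 2.37% of all tested genes, so the share is that of the background. Btg2 had 22.8, 176 and 6.75 CPM in shNizp1#2 cells and 12.6, 64.2 and 2.92 CPM in shNizp1#1 cells (log2 fold change 1.22, SE 0.22, adjusted p = 0.0102). Rrm2b, the p53-induced small subunit of ribonucleotide reductase, had 27.1, 32.0 and 35.2 CPM in shNizp1#2 cells and 14.3, 15.3 and 19.3 CPM in shNizp1#1 cells (0.94, SE 0.20, adjusted p = 0.0207). The Rrm2b values of these groups did not overlap, and the share of all tested genes without overlap was not counted. Tfdp2, a partner of E2F factors, had 25.4, 22.1 and 16.7 CPM in shNizp1#2 cells and 33.8, 31.8 and 27.9 CPM in shNizp1#1 cells (-0.57, SE 0.14, adjusted p = 0.0442). Its groups did not overlap either. In fusion-control cells Rrm2b had 19.9, 25.2 and 27.9 CPM and Tfdp2 27.8, 25.7 and 16.9 CPM. Against the control shRNA, Rrm2b was at -0.57 with shNizp1#1 (SE 0.20, adjusted p = 0.228) and at 0.37 with shNizp1#2 (SE 0.19, adjusted p = 0.495). Tfdp2 was at 0.44 (SE 0.14, adjusted p = 0.166) and -0.13 (SE 0.14, adjusted p = 0.788) in the same order, and none of these passed. Cdkn1a, the p53 target among the 10 genes, stood at 0.37 between shNizp1#2 and shNizp1#1, as given above. The Btg2 call remained without the first or the third shNizp1#1 library and without experiment 1, and it was lost in the other fits that left out a library of these groups or an experiment. The calls of Rrm2b and Tfdp2 were lost in every such fit.

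None of the replication genes passed in any comparison. Their mean log2(CPM + 1) was 5.94, 5.23 and 6.22 in shNizp1#2 cells, 6.11, 5.15 and 6.45 in shNizp1#1 cells and 6.07, 5.78 and 6.22 in fusion-control cells. The shRNA libraries thus lay well below the fusion control in experiment 2, while in experiment 3 shNizp1#2 was level with it and in experiments 1 and 3 shNizp1#1 was above it. With shNizp1#2 25 of 25 log2 fold changes were below 0 (median -0.23), against 50.4% of all tested genes, and without experiment 2 17 of 25 were (median -0.08). With shNizp1#1 18 of 25 were below 0 (median -0.10), against 50.7% of all, and without experiment 2 the direction turned, with 5 of 25 below 0 (median 0.17). Pcna, the sliding clamp of replication, had 245, 184 and 265 CPM in shNizp1#2 cells and 269.8, 212 and 276 CPM in fusion-control cells (-0.13, SE 0.09, adjusted p = 0.611). Mcm3, part of the replicative helicase, had 234, 152 and 316 CPM in shNizp1#2 cells and 271, 218 and 311 CPM in fusion-control cells (-0.23, SE 0.18, adjusted p = 0.670). In the list of G1 kinases and cyclins, which also holds genes of mitosis, 22 of 23 genes were below 0 with each shRNA. Of all tested genes, 50.4% were below 0 with shNizp1#2 and 50.7% with shNizp1#1. The list medians were -0.17 for shNizp1#2 and -0.11 for shNizp1#1, against a median of -0.00 for all tested genes in both. Without experiment 2 there were 17 of 23 below 0 for shNizp1#2 (median -0.09) and 14 of 23 for shNizp1#1 (median -0.02). Cdk4, the kinase that D-type cyclins activate, had 259.8, 195 and 315 CPM in shNizp1#2 cells and 295, 248 and 314 CPM in fusion-control cells (-0.17, SE 0.11, adjusted p = 0.603). With the fusion, Cdk4 had 295, 248 and 314 CPM in fusion-control cells and 278, 304 and 332 CPM in empty-vector cells (-0.10, SE 0.11).

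Of the other G1 genes, Cdk6 is named after its values were seen. Cdk6, a kinase partner of D-type cyclins with a known role in blood stem cells, had 137, 149 and 266 CPM in fusion-control cells and 93.5, 116 and 127 CPM in empty-vector cells. The ranges did not overlap, but the share of all tested genes without overlap was not counted. Its log2 fold change was 0.65 (SE 0.16, adjusted p = 0.193), which did not pass but did in DESeq2 with the block (adjusted p = 0.0128). Rb1, the founding RB protein, had 202, 180.2 and 172 CPM in fusion-control cells and 192, 131 and 124 CPM in empty-vector cells (0.32, SE 0.11, adjusted p = 0.303). Its relative Rbl2 was at -0.12 (SE 0.10, adjusted p = 0.712) with the fusion. Of the G1 list 16 of 23 genes were below 0 with the fusion (median -0.05), against 50.2% of all tested genes. Of the RB and E2F list 11 of 18 were (median -0.06). In the p53 list 16 of 21 genes were above 0 with the fusion, against 49.8% of all tested genes, and none passed. The list median was 0.11, and it was 0.25, 0.15 and 0.12 without experiments 1, 2 and 3. With shNizp1#1 14 of 21 were below 0 (median -0.17), against 50.7% of all tested genes. That median was -0.21, -0.10 and -0.27 without experiments 1, 2 and 3. With shNizp1#2 11 of 21 were below 0 (median -0.01). Ccng1, a p53 target, was at 0.25 (SE 0.13, adjusted p = 0.506) with the fusion and at -0.38 (SE 0.13, adjusted p = 0.230) with shNizp1#1. Trp53 itself was at 0.08 (SE 0.11) with the fusion and at -0.26 (SE 0.11, adjusted p = 0.397) with shNizp1#2.

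**Figure D5:**
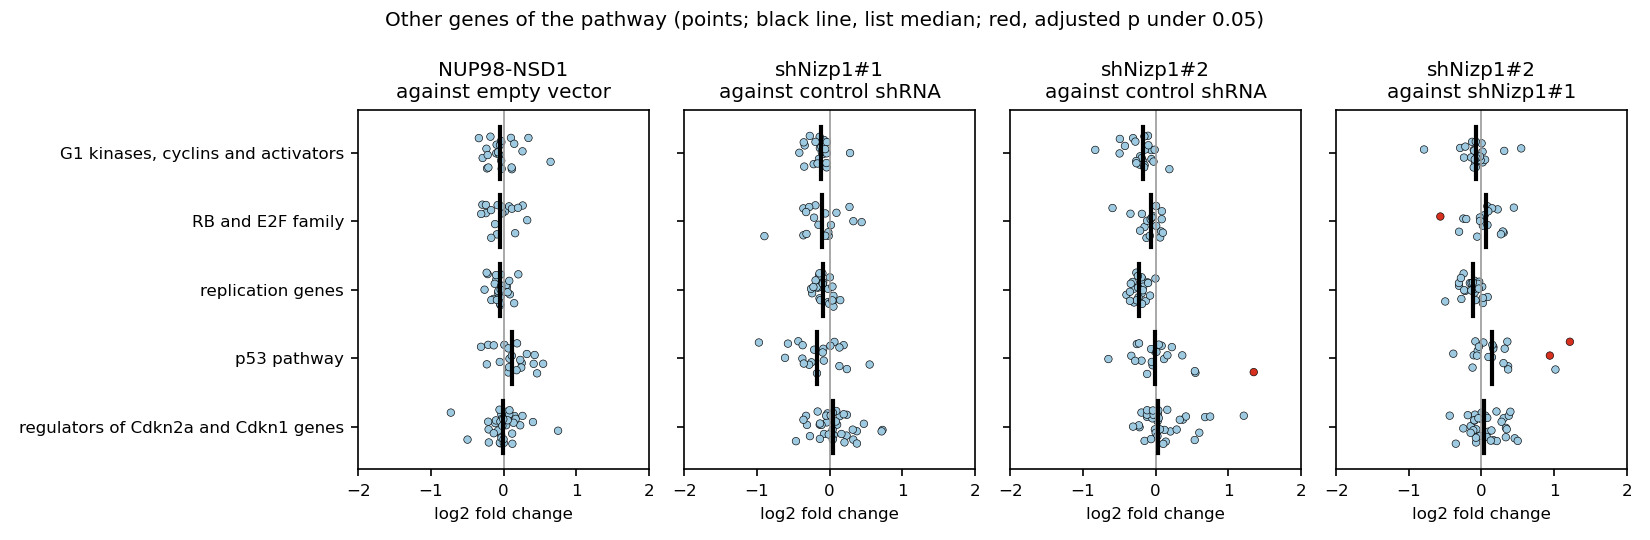
Log2 fold changes, with the replicate number as a block, of the other genes of the pathway in 5 lists (rows) and 4 comparisons (panels), with a black line at each list's median and red points for an adjusted p under 0.05. The replication genes lie below 0 with shNizp1#2 (median -0.23, but -0.08 without replicate 2), and the red points are Btg2, Rrm2b and Tfdp2.

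The genes whose pattern was most like each of the 10 were found by Pearson's r of log2(CPM + 1) over the 12 libraries among 9762 or 9763 genes. All points share the experiments, and each partner was picked as the highest of all these r values. A high r is therefore no sign of a shared function, and these values describe these libraries only. Cdkn1a ran most like Mdm2, the ligase of p53 and also a p53 target (r = 0.92), and Asb3 (0.91). Cdkn1b ran like Mier1 (0.98) and Ogt (0.97), Cdkn2a like Adgra3 (0.98) and Rims3 (0.97), and Cdkn2b like Diaph3 (0.96) and Tcp1 (0.95). Cdkn2c ran like Cdca3, a cell-division gene (0.98), and Smg9 (0.96). Cdkn2d ran like Arhgap1 (0.94) and Aldh1l1 (0.94), and Cdkn1c, whose pattern is 1 high library, like Src (0.88) and Flvcr1 (0.77). Ccnd1 ran like Rnf24 (0.91) and Pdzd8 (0.89), Ccnd2 like Spdl1 (0.89) and Snrpc (0.89), and Ccnd3 like Hrh2 (0.92) and Pdcd6ip (0.92).

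After the mean of each experiment was subtracted, some of these partners stayed. Cdkn2c was again most like Cdca3 (r = 0.97), followed by Cenpa, a centromere histone (0.95). Cdkn1b was again most like Mier1 (0.95), followed by Ercc6 (0.94), and Cdkn2d again most like Arhgap1 (0.94), followed by Wrap53 (0.94). The closest gene to Cdkn1a became Khdc4 (0.94), that to Ccnd1 became Swt1 (0.97), that to Ccnd2 Mogs (0.93) and that to Ccnd3 Fez1 (0.94). Cdkn2a was then most like Tom1l1 (0.91) and Cdkn1c like Slc35f6 (0.89). Cdkn2b was most like Ints2 (0.89), followed by Diaph3 (0.89), which stayed.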

How the data were processed

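The deposited table holds whole-number counts of reads per gene for the 12 libraries, per the file headers, with gene coordinates and exon lengths. The labels' protocols give 1 µg of RNA, a stranded TruSeq poly(A) preparation and single reads of 75 nt. Per the submitters' processing notes, Trimmomatic 0.32, STAR 2.5.3a, featureCounts and mm10 were used. How strand was treated, and which annotation was counted, is not given in the sources used here, so overlapping antisense genes may share reads.

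The test was the robust quasi-likelihood test of edgeR 4.0.16 (R 4.3.3), with 1 mean for each group over all 12 libraries, after a filter on low counts by group and TMM scaling, with Benjamini-Hochberg adjustment over 11994 genes. SEs were derived from the F statistic, and the procedure was tested on simulated data. TPM were computed from the counts and exon lengths. Total counts of 3586538 to 6842589 per library limit the precision for Cdkn1c and Cdkn2b, and the floor of 3 counts covers counting error only, since reads carry no molecular identifiers.

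Replicate numbers pair the samples: residuals of libraries with the same number correlated in 18 of 18 pairs (r 0.22 to 0.88, median 0.74), other pairs had a median of -0.20, and 12 of 12 libraries correlated best with their own number. The fit with that number as a block therefore stands beside the one without. No replicates agreed within sampling noise. Named genes are the 10 members and, from each pathway list and comparison, up to 4 genes that passed or else the 2 most highly expressed (a part of these is printed), and the 2 genes most like each member. The members and lists were chosen with earlier results of these data known. Alternatives were RLE scaling, no filter on low counts, DESeq2 1.42.0, only the 2 groups compared, and leaving out libraries or experiments (for the list medians chosen after seeing the data).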

Additional observations from a re-analysis of the deposited data

How the results depend on the processing

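With the replicate block instead of no block, the number of the 10 genes passing lower with the fusion was 1 instead of 0, the number of pathway genes passing higher with shNizp1#2 against the control shRNA was 1 instead of 0, and between the shRNAs 2 passed higher and 1 lower instead of 0; no other count of calls among the 10 genes and the pathway lists changed. The values that follow are with the block unless stated. Leaving out libraries or experiments, the Cdkn2d call with the fusion ranged from 0 to 1. In the same fits the pathway count higher ranged from 0 to 1 with the fusion, from 0 to 1 with shNizp1#2 against the control shRNA and from 0 to 2 between the shRNAs, where the count lower was 0 in each. With no filter on low counts (23682 genes) 2 of the 10 genes, Ccnd1 and Cdkn1a, passed higher between the shRNAs. The pathway counts were then 3 higher with the fusion (Cdk6, Mycn, Trp53inp1), 1 higher (Egr1) and 3 lower (Ccng1, Cdk1, Tgfbr1) with shNizp1#1, 4 higher and 2 lower with shNizp1#2, and 5 higher and 2 lower between the shRNAs. Over all 23682 genes this fit called 280 higher and 171 lower with the fusion, against 30 and 3 with the filter. The numbers were 222 and 290 against 61 and 134 with shNizp1#1, and 256 and 113 against 17 and 9 with shNizp1#2. Between the shRNAs they were 437 and 189 against 214 and 70. With DESeq2 the pathway counts were 1 higher with the fusion (Cdk6), 1 lower with shNizp1#1 (Tfdp1) and 2 higher with shNizp1#2 (Btg2, Ets1). Between the shRNAs they were 3 higher (Btg2, Rrm2b, Tgfbr1) and 0 lower. Over all genes DESeq2 called 60 higher and 16 lower with the fusion and 71 and 166 with shNizp1#1. It called 48 and 30 with shNizp1#2, and 264 and 97 between the shRNAs. Without the block DESeq2 gave 1 higher pathway gene between the shRNAs (Rrm2b), with 58 higher and 15 lower over all genes. RLE scaling gave 1 lower pathway gene with shNizp1#1 (Tfdp1). The cause of these changes was not tested.

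Among the values of the 10 genes with the block, 419 kept their direction and side of the threshold under the alternatives, 52 changed sign while never passing, 2 came to pass and 7 no longer passed, the last all for Cdkn2d with the fusion. No value that passed changed sign. Few counts limit Cdkn1c and Cdkn2b, and joint counting limits Cdkn2a.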
